A study of Mus musculus with 5 samples.

Results

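The comparison described here is that of liver RNA from mice given buthionine sulfoximine (BSO) together with troglitazone (TGZ) against liver RNA from mice given TGZ without BSO. A gene was a member when its probe was called well above background by the scanner software on at least 1 of the 2 arrays. Of 36870 gene names on the array, 20863 met this rule. On the brighter of both arrays, members had a scaled signal (75th percentile = 100) of at least 6.01, with 9.43 at their 5th percentile, and the names left out had at most 8.72. The animals were female BALB/c mice aged 6 weeks, injected intraperitoneally and killed 6 hr later. TGZ was given at 300 mg/kg, BSO at 700 mg/kg, and the other groups received vehicle, rosiglitazone (RGZ) at 300 mg/kg, or RGZ at 300 mg/kg with BSO at 700 mg/kg. No group received BSO alone, and every value for BSO therefore describes its addition to a thiazolidinedione. The RNA of 6 livers was pooled for each group and hybridised once to a single-colour array. A group thus had n = 1, no difference between groups was tested, and no p-value is given.

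BSO inhibits glutamate-cysteine ligase, the enzyme that makes the first bond of glutathione, and so lowers the supply of the tripeptide that conjugates reactive drug metabolites and peroxides. TGZ and RGZ are thiazolidinediones, ligands of the nuclear receptor PPAR gamma, and TGZ is known for liver injury in patients. When glutathione runs low, the transcription factor NRF2 is released from its inhibitor KEAP1 and turns on antioxidant genes, among them both subunits of glutamate-cysteine ligase. The integrated stress response, led by ATF4, is a second route by which cells meet oxidants and amino acid shortage, and it turns on Chac1, an enzyme that degrades glutathione.

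Levels are given as scaled signals and differences as those of log2 signals. The arrays were of similar quality, with 51.9% to 55.2% of probes well above background, no saturated spot, and a correlation of 0.990 between the log2 signals of the TGZ and BSO plus TGZ arrays across probes. The software's error of both spots gives a difference a median SD of 0.20 (log2), which for most genes makes the 95% interval reach 1.32-fold to each side. This error covers the measurement of spots and no variation between animals, pools or labelling reactions. It is the software's estimate, with a median SD of 0.146 for a spot. Replicate spots of a probe on the same array differed by less, with a median SD of 0.040 to 0.043 (log2). The label of liver was borne out by hepatocyte markers, all 18 of which passed the background call on each of the 5 arrays. In bulk liver, fewer cells of a type and less RNA per cell cannot be told apart, which holds for every gene below.

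Most of the transcriptome differed little between the arrays. Among 20809 members with a value (54 gave no fold), the median difference was -0.02 and the quartiles were -0.18 and 0.16 (log2, BSO plus TGZ minus TGZ). At least 2-fold higher with BSO were 326 genes, 1.57% of those with a value, and at least 2-fold lower were 103, or 0.495%. Past 4-fold there were 34 higher and 18 lower genes. Higher genes made up 76.0% of the 2-fold differences. That share was 63.9% when arrays were scaled to their medians (257 higher and 145 lower) and 94.4% when they were scaled to the spike-in RNA (694 and 41), since spike-in scaling moves the median of all genes by 0.27. Of the higher genes 209 were well above background on both arrays, and for 117 the TGZ array gave only a bound. Of the lower genes 52 were measured on both and 51 were bounds.

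The 2 directions differed in where on the signal scale their genes lay. Among 11081 genes with a mean level at or above the 75th percentile, 56 were at least 2-fold higher (0.505%) and 4 were lower (0.0361%). Among 7744 genes between a level of 1/10 of that percentile and the percentile itself, 153 were higher (1.98%) and 44 lower (0.568%). A second measured probe was available for 48 of the higher genes and had the same direction in 45 of them. For the lower genes there were 3 such cases, 2 of them with the same direction.

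**Figure D1:**
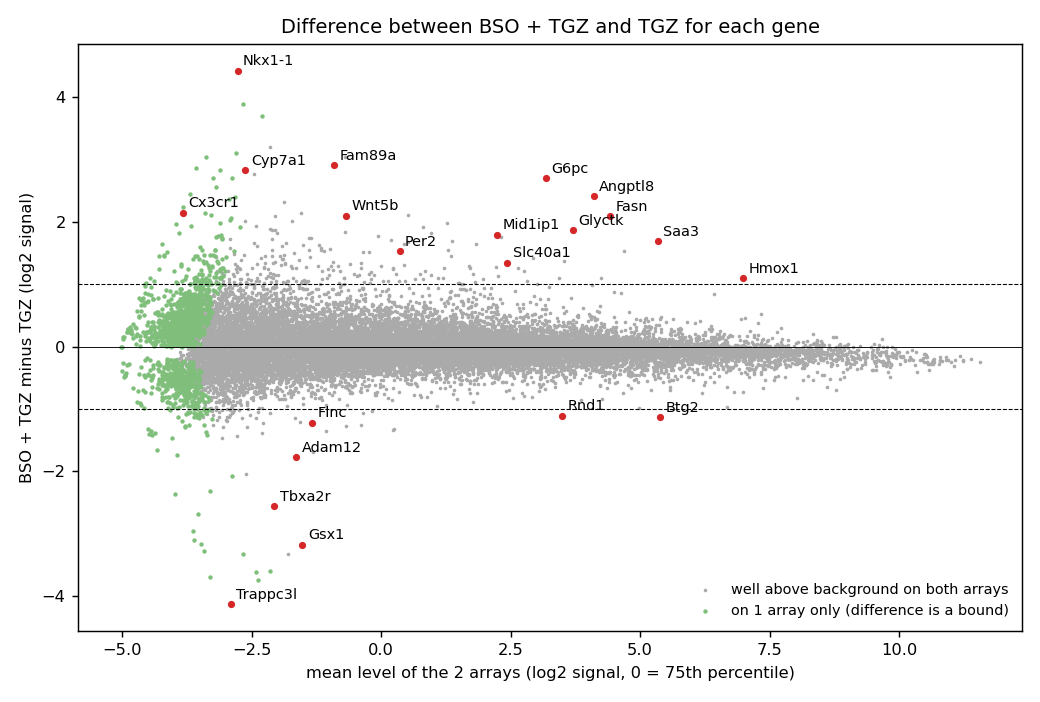
Difference between BSO plus TGZ and TGZ (vertical axis, log2 signal) against the mean level of both arrays (horizontal axis, log2 signal, 0 = 75th percentile) for each gene; grey points are measured on both arrays, green points on 1 array (bounds), red points are labelled genes and dashed lines mark 2-fold. Towards high levels the genes past the upper line, such as G6pc (2.70) and Fasn (2.09), outnumber those past the lower line, such as Btg2 (-1.13) and Rnd1 (-1.11).

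The well measured genes with the largest excess under BSO included several enzymes and regulators of sugar and fat metabolism. G6pc, glucose-6-phosphatase, which releases free glucose from hepatocytes, had a scaled signal of 354 with TGZ, 2307 with BSO plus TGZ, 4632 with vehicle, 5716 with RGZ and 6096 with BSO plus RGZ. The BSO plus TGZ array was therefore 6.52-fold above the TGZ array (95% interval 4.94 to 8.60), and both lay below the other 3. The G6pc probe lies on chr11:101238947-101239006 (mm9). Angptl8, a secreted regulator of lipoprotein lipase that is made after feeding, had 739 with TGZ and 3961 with BSO plus TGZ, 5.36-fold higher (4.06 to 7.07). Its signals with vehicle, RGZ and BSO plus RGZ were 11247, 15226 and 22123. Fasn, fatty acid synthase, had 1035 with TGZ and 4397 with BSO plus TGZ, a 4.25-fold difference (3.22 to 5.61), beside 19438 with vehicle, 13182 with RGZ and 8683 with BSO plus RGZ. In each of these 3 genes the TGZ array was the lowest of the 5 and BSO plus TGZ the next. Here and below, genes picked for a difference between the TGZ and BSO plus TGZ arrays are more likely to have an extreme TGZ signal. Their order of arrays, including the place of vehicle, is therefore a description only.

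Other genes of the same kind had the same order of arrays. Glyctk, glycerate kinase of fructose and serine breakdown, had 675 with TGZ and 2470.2 with BSO plus TGZ (3.66-fold, 2.77 to 4.83) and 7245 with vehicle. Mid1ip1, which activates acetyl-CoA carboxylase, was 3.48-fold higher (253 and 879.8, vehicle 4498). Ppp1r3c, a subunit that directs protein phosphatase to glycogen, was 3.44-fold higher (51.6 and 177, vehicle 456). The fructose transporter gene Slc2a5 (GLUT5) was 3.37-fold higher (20.8 and 70.2, vehicle 309.6), although only by 0.75 (log2) with the normexp background correction. Mid1ip1, Ppp1r3c and Slc2a5 were picked after their values had been seen.

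Among the higher genes named by rule, the largest measured difference was that of Fam89a, a gene of little known function, with 19.5 on the TGZ array and 147 on the BSO plus TGZ array, 7.53-fold higher (5.54 to 10.2). The vehicle, RGZ and BSO plus RGZ arrays gave 699, 694 and 808. Kcnj10, an inwardly rectifying potassium channel, had 6.95 with TGZ and 47.5 with BSO plus TGZ, 6.84-fold higher (4.24 to 11.0), and 91.6 with vehicle. Wnt5b, a secreted WNT ligand, was 4.28-fold higher (3.18 to 5.76), with 30.2 and 129 beside 609 with vehicle. Prok1, a secreted prokineticin, was 5.01-fold higher (12.2 and 61.0, vehicle 204). Anks4b, an adaptor of microvilli, was 4.41-fold higher (16.2 and 71.6, vehicle 362), and the phosphatase-family gene Hdhd3 was 3.95-fold higher (122 and 482, vehicle 2583). In these genes too TGZ was the lowest array and BSO plus TGZ the next, an order that their choice by this difference favours.

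The remaining 6 of the 15 higher genes named by rule were Dclk3 (a kinase, 3.71-fold), Asap3 (an ARF GTPase-activating protein, 3.66-fold), Dapk2 (a death-associated kinase, 3.58-fold), Celsr1 (a planar polarity cadherin, 3.55-fold), Map4k1 (a kinase of blood cells, 3.52-fold) and Glyctk above. Map4k1 had another order, since its signal of 46.6 with BSO plus TGZ was the highest of the 5 arrays and the others ranged from 13.2 to 22.6. For the dimmer of these genes the size rests on the background correction. With normexp the difference was 0.90 for Kcnj10, 0.82 for Prok1, 0.86 for Anks4b, 0.67 for Dclk3, 0.64 for Asap3 and 0.58 for Map4k1, all below 2-fold, whereas Fam89a (1.78), Wnt5b (1.23), G6pc (2.62) and Fasn (2.12) stayed past it, the first pair with smaller differences.

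**Figure D2:**
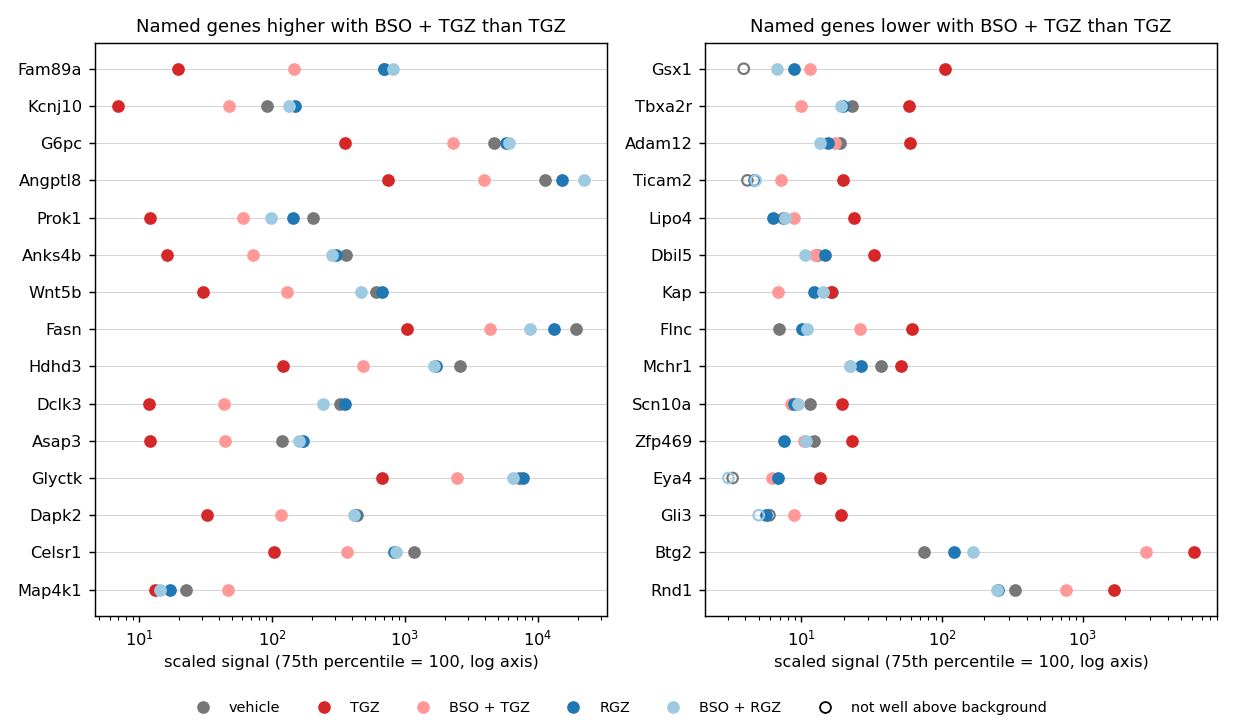
Scaled signal (horizontal log axis, 75th percentile = 100) on each of the 5 arrays for the genes with the largest measured differences named by rule, higher with BSO plus TGZ (left) and lower (right); 1 point is 1 array, and open points were not well above background. On the left the red TGZ point is the lowest of each gene, by little in Map4k1 (13.2 against 14.3 with BSO plus RGZ), and on the right it is the highest, except in Kap (16.3 against 16.4 with vehicle). The choice of genes by the difference between TGZ and BSO plus TGZ favours this place of the TGZ point.

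For some genes the TGZ array gave no signal well above background, and only a bound is available. Cyp7a1, which commits cholesterol to bile acids, had 47.0 with BSO plus TGZ and a signal of 5.63, not well above background, with TGZ. It was at least 7.09-fold higher with BSO, and its signals were 418 with vehicle, 1081 with RGZ and 650.4 with BSO plus RGZ. Its difference was 1.74 (log2) as a mean over probes and 0.83 with normexp. The other bounds named by rule, those of the homeobox gene Nkx1-1 (at least 21.6-fold), Dydc1 (at least 8.66-fold) and Grip2 (at least 7.18-fold), had a different form. Nkx1-1 had 143 with BSO plus TGZ and 1.25 to 1.94, not well above background, on the other 4 arrays. Dydc1 and Grip2 were likewise brightest on the BSO plus TGZ array (57.4 and 47.6). Dydc1 was also well above background, but dim, with BSO plus RGZ (8.32). With normexp Dydc1 (0.97) and Grip2 (0.82) were below 2-fold and Nkx1-1 was at 2.03. Each of these 3 rests on 1 bright array.

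Fatty acid and triglyceride synthesis had 22 of 23 listed genes with a value and a median difference of 0.11, beside -0.02 for all genes. Only Fasn was at least 2-fold higher and none was lower. Srebf1, the transcription factor that drives the pathway, had 1835 with TGZ and 3338 with BSO plus TGZ, 1.82-fold higher (1.38 to 2.40). Agpat2, an acyltransferase of triglyceride synthesis, had 6391 and 11455 (1.79-fold). Acaca, acetyl-CoA carboxylase, had 697 and 1063 (1.53-fold, 1.16 to 2.01). The differences of these 3 genes were below 2-fold, and their intervals did not reach 1. Acly, which supplies cytosolic acetyl-CoA, had 2167 and 2192, a ratio within its measurement error. Scd1, the desaturase, had 11706 and 9267, and its interval also includes no difference (0.957-fold to 1.67-fold lower).

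Cholesterol synthesis and uptake had a median of 0.17 with no gene past 2-fold among 24. Mvd, mevalonate diphosphate decarboxylase, was the highest at 0.96 (16.8 with TGZ, 32.7 with BSO plus TGZ and 181 with vehicle). With normexp it was at 0.33, below Fdps (0.56) and Hmgcs1 (0.52). Fdps and Hmgcs1 differed by 0.53 and 0.48, and stayed well below their vehicle signals of 4623 and 5714. Bile acid genes had a median of -0.05, with Cyp7a1 and Nr0b2 past 2-fold among 22. Nr0b2, the repressor SHP, had 15.6 with TGZ and 49.7 with BSO plus TGZ, 3.19-fold higher (2.27 to 4.48), but 0.67 with normexp, and Nr1h4, the bile acid receptor FXR, was 0.58 higher (log2, 963 and 1444).

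Gluconeogenesis and glucocorticoid targets had a median of -0.14 (0.13 with spike-in scaling), with G6pc and Tsc22d3 past 2-fold among 20. Tsc22d3, a glucocorticoid-induced leucine zipper protein, had 564 and 1134, 2.01-fold higher (1.52 to 2.65), and fell short of 2-fold with median scaling (0.94) and as a mean over probes (0.82). The other gluconeogenic enzyme gene Pck1 had 14734 on the TGZ array and 12322 on the BSO plus TGZ array. The coactivator Ppargc1a differed by -0.48. The other listed enzymes of the pathway, Fbp1, Pcx and G6pc3, differed by -0.08, -0.11 and 0.07. PPAR alpha targets and fatty acid oxidation had a median of -0.09 (0.18 with spike-in scaling) with 1 of 30 past 2-fold. That gene was Acot3, a peroxisomal acyl-CoA thioesterase, 2.70-fold higher (467 and 1261, vehicle 1159.5), and its neighbour Acot4 was 1.90-fold higher. For PPAR gamma targets and lipid droplets the median was -0.04 over 18. G0s2, the inhibitor of adipose triglyceride lipase, was 3.39-fold higher (269.5 and 914, vehicle 554), while the droplet proteins Cidea and Plin1 differed by -0.84 and -0.75.

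Circadian clock genes held more genes past 2-fold than any other of the 39 lists, although their median was near 0. Of 20 with a value, 5 were at least 2-fold higher, none was 2-fold lower, and the median was 0.03. The shares of all genes with a value were 1.57% higher and 0.495% lower. The lists were chosen with earlier results of these data known, and the count was not tested. Among the 5 were the period genes Per2 and Per3 and the PAR bZIP factors Dbp and Hlf, which bind D-box sites. Per2 had 75.3 with TGZ and 218 with BSO plus TGZ, 2.89-fold higher (2.19 to 3.83), beside 405 with vehicle. Hlf had 75.2 and 181 (2.41-fold, vehicle 511). Dbp, a rhythmic output gene of the liver clock, had 323 and 709 (2.19-fold, vehicle 5313). Per3 was not well above background with TGZ (6.50), had 27.8 with BSO plus TGZ and 98.7 with vehicle, and was at least 4.19-fold higher. In these 4 genes the BSO plus TGZ signal lay between those of TGZ and vehicle.

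The core activators and most other repressors had smaller differences. The lowest listed clock gene was Bhlhe41, well above background on the TGZ array only of this pair, with a bound of -0.83 (log2). It was at -0.32 with normexp. Clock had 393 with TGZ and 401 with both agents, and Arntl (BMAL1), its partner, had 41.4 and 46.6. The REV-ERB repressor genes Nr1d1 and Nr1d2 differed by -0.01 and -0.03. Per1 had 1582 with TGZ and 1353 with both agents. Nfil3, a bZIP repressor at D-box sites, had 5318 and 4618 on the same arrays, both above its 688 with vehicle. Tef, the third PAR bZIP factor, was 1.22-fold higher (0.923 to 1.61). Per2 was at 0.92 as a mean over its probes, and Per3 and Hlf were at 0.45 and 0.98 with normexp, each below 2-fold.

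D-box sites are shown for 4 named genes, since genes of the factors that bind them were among those past 2-fold. Promoter sequences of 250 bases before to 50 after the start were taken from the RefSeq table (GRCm38.p6) and searched on both strands for TTATGTAA and TTACGTAA. Neither contains another of the motifs searched, whereas the antioxidant response core can contain the AP-1 site. Capitals mark the match, which reads TTACATAA where TTATGTAA lies on the other strand. Each stretch runs 5′ to 3′ along the gene's strand and ends before the start.
Per3, chr4:151044776-151044910, minus strand: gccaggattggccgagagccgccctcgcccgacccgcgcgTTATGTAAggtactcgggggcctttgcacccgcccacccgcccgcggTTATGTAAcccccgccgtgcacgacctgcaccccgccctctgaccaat
G6pc, chr11:101367514-101367601, plus strand: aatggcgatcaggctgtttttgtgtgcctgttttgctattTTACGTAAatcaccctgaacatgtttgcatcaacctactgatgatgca
Wnt5b, chr6:119467283-119467370, minus strand: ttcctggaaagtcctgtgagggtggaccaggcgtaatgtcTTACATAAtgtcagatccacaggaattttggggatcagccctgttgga
Lipo4, chr19:33517819-33517906, minus strand: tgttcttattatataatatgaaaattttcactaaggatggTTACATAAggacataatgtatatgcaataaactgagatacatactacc
The Per3 matches begin 205 and 158 bases before the start, that of G6pc 162, that of Wnt5b 119 and that of Lipo4 96. Lipo4 was lower with BSO plus TGZ, the other 3 genes higher.

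Of 242 promoters of genes at least 2-fold higher, 8 held the D-box (3.31%), as did 1 of 52 promoters of lower genes (1.92%), 141 of 15647 promoters of all genes with a value (0.901%) and 347 of 32851 promoters in the whole table (1.06%). A promoter entry was found for 192 of 260 higher and 48 of 65 lower genes with a RefSeq symbol. The antioxidant response core TGACNNNGC lay in 15.7% of the promoters of higher genes, 11.5% of lower and 13.8% of all. The AP-1 site TGACTCA was in 4.55%, 3.85% and 4.37%, the cAMP response element TGACGTCA in 0.826%, 3.85% and 2.74%, and the E-box CACGTG in 8.26%, 9.62% and 9.18%. The heat shock element GAANNTTC was in 4.55%, 5.77% and 6.15%, the metal response element (TGCACNC or TGCGCNC) in 33.1%, 23.1% and 33.0%, and the amino acid response element TGATGNAAT in 0.413%, 0 and 0.562%. A match describes these letters in this window and names no factor as bound.

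**Figure D3:**
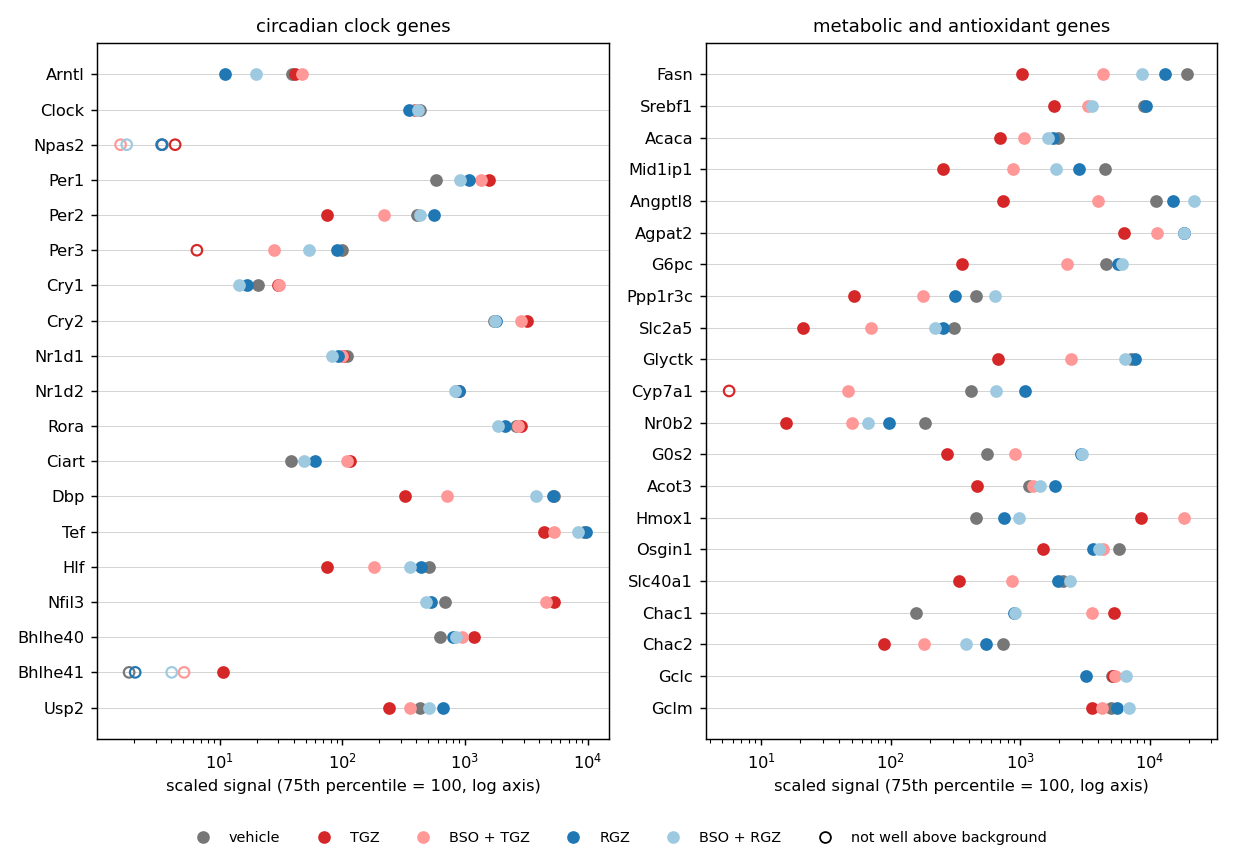
Scaled signal (horizontal log axis, 75th percentile = 100) on each of the 5 arrays for circadian clock genes (left) and for metabolic and antioxidant genes of the text (right); 1 point is 1 array, and open points were not well above background. Per2, Per3, Hlf and Dbp have the BSO plus TGZ point between TGZ and vehicle, while Hmox1 has it highest of the 5 (18463) and Gclc has TGZ and BSO plus TGZ close together (5208 and 5387).

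The enzymes that BSO and glutathione bear on directly differed little. Glutathione synthesis, recycling and breakdown had a median of 0.04 over 14 of 17 genes. Gclc, the catalytic subunit that BSO inhibits, had 5132 with vehicle, 5208 with TGZ, 5387 with BSO plus TGZ, 3206 with RGZ and 6535 with BSO plus RGZ. The BSO plus TGZ array was 1.03-fold above TGZ, with an interval of 0.784 to 1.36. Gclm, the modifier subunit, had 3563 with TGZ and 4258 with both agents (1.19-fold, 0.906 to 1.58). Gss, glutathione synthetase, which adds the final amino acid, had 3831 and 3840.2. Gsr, glutathione reductase, which regenerates the reduced form, had 3929 and 4334 (1.10-fold, 0.836 to 1.46). The intervals of these 4 genes all include 1. The glutathione-degrading enzymes differed in direction. Chac2 had 88.1 and 182 (2.07-fold higher, 1.56 to 2.73, vehicle 738). Chac1 had 5279 and 3567 (1.48-fold lower, 1.12 to 1.95, vehicle 158). The Chac2 difference was 0.98 with median scaling and 0.80 with normexp.

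NRF2 targets had a median of 0.02 over 29 genes, with Hmox1 and Osgin1 at least 2-fold higher and none lower. Hmox1, heme oxygenase, which breaks down heme, had 458 with vehicle, 8619 with TGZ and 18463 with BSO plus TGZ, 2.14-fold higher (1.62 to 2.83), and 748 and 979 on both RGZ arrays. It was highest with BSO plus TGZ, unlike most genes described above. Osgin1, an oxidative stress induced growth inhibitor, had 1504 with TGZ and 4382 with BSO plus TGZ, 2.91-fold higher (2.21 to 3.84), but 5784 with vehicle. Srxn1, sulfiredoxin, which repairs peroxiredoxins, had 11499 with TGZ and 10749 with both agents (vehicle 2365). Txnrd1, thioredoxin reductase, had 6138 and 6446 (vehicle 3059). Nqo1, a quinone reductase, was at 0.22 (0.869-fold to 1.56-fold). The intervals of these 3 genes include no difference.

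Related lists were near the median of all genes. NRF2 regulators had a median of -0.07 over 10, with Nfe2l2 at 0.38 and Maff at -0.38. Thioredoxin, peroxiredoxin and antioxidant enzymes had -0.04 over 24, with glutaredoxin (Glrx) at -0.51. Glutathione transferases and peroxidases had -0.09 over 26, and sulfur amino acid enzymes -0.02 over 16, with Mat2a at -0.40. Metallothioneins and zinc transporters had -0.01 over 11, with Mt1 at -0.28 (166250.1 and 136599), Mt2 at -0.24, the zinc exporter Slc30a1 at 0.54 and the importer Slc39a14 at -0.54. None of these 5 lists had a gene past 2-fold. Heme and iron genes had a median of -0.01 over 23, with Hmox1 and Slc40a1 past 2-fold. Slc40a1, the iron exporter ferroportin, had 338 with TGZ and 862 with BSO plus TGZ, 2.55-fold higher (1.93 to 3.36), beside 2155 with vehicle. The heme synthesis genes Cpox and Uros differed by 0.78 each.

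The lower genes included few well measured ones. Btg2, an antiproliferative immediate early gene, had 74.0 with vehicle, 6182 with TGZ and 2830.4 with BSO plus TGZ, 2.18-fold lower than TGZ (1.66 to 2.88), and 122 and 165 on the RGZ arrays. Rnd1, a small GTPase, had 331 with vehicle, 1654 with TGZ and 765 with BSO plus TGZ, 2.16-fold lower (1.64 to 2.85). With spike-in scaling these differences were -0.86 and -0.85, and as a mean over its probes Rnd1 was at -0.88. In both genes TGZ was the highest array and BSO plus TGZ the next, an order that their choice by this difference favours.

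The largest lower values came from dim probes. Gsx1, another homeobox gene, had 105 with TGZ and 11.6 with BSO plus TGZ, 9.04-fold lower (6.28 to 13.0), and 3.90 to 8.93 on the other 3. Tbxa2r, the thromboxane receptor, had 58.4 and 9.87, 5.91-fold lower (3.97 to 8.79), and 19.0 to 23.0 elsewhere. Adam12, a metalloprotease, had 59.3 and 17.4, 3.41-fold lower, but -0.20 (log2) as a mean over its probes. With normexp these 3 differences were smaller, at -1.60 for Gsx1 and -1.13 for Tbxa2r, both outside the intervals given, and -0.94 for Adam12, below 2-fold. Ticam2, Lipo4, Dbil5, Kap, Flnc, Mchr1, Scn10a, Zfp469, Eya4 and Gli3 were 2.19-fold to 2.75-fold lower, and none of these 10 was past 2-fold with normexp (-0.36 to -0.70). The bounds named by rule were Trappc3l (at least 17.6-fold lower), Gml (13.4-fold), Lrfn5 (12.9-fold) and Slc35g2 (-3.33 on the log2 scale). Each of these 4 was well above background on the TGZ array alone, with 105, 80.4, 77.1 and 60.0, so each rests on 1 array. With normexp the 4 ranged from -1.36 for Slc35g2 to -1.84 for Trappc3l.

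The integrated stress response had a median of -0.36 over 22 genes, close to the -0.35 of immediate early genes and below the other lists, with Mthfd2 at least 2-fold lower and none higher, and 17 genes below 0. The same list had 0.08 in the RGZ pair, and for TGZ -0.10 with spike-in scaling, -0.25 with normexp and -0.24 with quantile normalization. Immediate early genes were the lower of the pair with both of the last settings (-0.27 and -0.30), and cholangiocyte markers were also lower with quantile normalization (-0.29). Mthfd2, a mitochondrial folate enzyme, had 19.4 with TGZ and 9.10 with BSO plus TGZ (2.14-fold lower, 1.40 to 3.25, and -0.41 with normexp). Psat1, of serine synthesis, had 54.7 and 30.7 (1.78-fold lower). Trib3, a pseudokinase that restrains ATF4, had 894 and 516 (1.73-fold lower), and 492 with vehicle. Ddit3, the transcription factor CHOP, had 68.2 and 41.2, the latter below its 48.0 with vehicle. Atf3, a stress-induced repressor, kept a signal far above vehicle on both arrays, with 1066 with TGZ, 651 with both agents and 8.71 with vehicle. Ddit4, an inhibitor of mTORC1, had 9285, 6065 and 559.8 on the same arrays. Atf4 itself had 25241 and 20133, a 1.25-fold difference (0.950 to 1.65). Asns, Gdf15 and Fgf21, further targets of the pathway, were not lower, at 0.03, 0.13 and 0.37.

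Immediate early genes, which respond to growth and stress signals within the first hour, had a median of -0.35 over 27, with Btg2 at least 2-fold lower, none higher and 24 below 0. With spike-in scaling the median was -0.08, and the RGZ pair had 0.15. Egr1 had 1127 with TGZ and 705 with BSO plus TGZ (1.60-fold lower, 1.21 to 2.11). Jund, of the AP-1 family, had 16300.4 and 9863 (1.65-fold lower). Dusp5, a phosphatase of ERK, had 203 and 118 (1.72-fold lower). Fos, Jun, Nr4a1, Ier3 and Myc had signals 1.18-fold to 1.62-fold lower, and the intervals of Jun and Myc include no difference. For all 8 the vehicle signal was below that of BSO plus TGZ, from 7.90 for Ier3 to 3267 for Jund.

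Among the 39 lists, Kupffer cell and endothelial markers had the highest medians. Kupffer cell and macrophage markers had a median of 0.45 over 18 genes, 15 of them above 0. The median was 0.39 with median scaling, 0.72 with spike-in scaling and 0.33 with normexp. Cx3cr1, the fractalkine receptor, was the only one past 2-fold, with 172 with vehicle, 1.69 (not well above background) with TGZ and 29.5 with BSO plus TGZ, at least 4.44-fold higher, but 0.50 with normexp. The scavenger receptor Marco had 226 with TGZ and 425 with BSO plus TGZ (1.88-fold, 1.42 to 2.48). C1qa, of the complement C1q complex, had 186 and 311 (1.67-fold). The phagocytic receptors Timd4 and Vsig4 were 1.66-fold and 1.53-fold higher, but at 0.16 and 0.36 (log2) with normexp. Clec4f, a lectin specific to Kupffer cells, had 1186 and 1562 (1.32-fold, 0.998 to 1.74). Cd68, a lysosomal marker of all macrophages, was not higher, with 579 and 546. The summed signal of the 18 genes was 13960.0 with vehicle, 12504 with TGZ, 15469 with BSO plus TGZ, 14433 with RGZ and 13280.4 with BSO plus RGZ. All 18 were well above background with BSO plus TGZ and 17 with TGZ.

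Sinusoidal endothelial markers had a median of 0.40 over 14 genes, 13 of them above 0 and none past 2-fold. Oit3 had 130.1 with TGZ and 229 with BSO plus TGZ (1.76-fold). Kdr, the VEGF receptor, had 273 and 464 (1.70-fold, 1.29 to 2.24). Stab2, the hyaluronan scavenger receptor, had 1090.2 and 1441. Pecam1, found on all endothelium, was not higher, with 31.7 and 30.5. Their summed signal was 9098 with vehicle, 5777 with TGZ and 7708 with both agents. All 14 passed the background call on every array. Hepatocyte markers had a median of -0.20, with Alb at 259539.9 and 221376, but 0.01 with quantile normalization and 0.07 with spike-in scaling. Their summed signal was 2198889 with TGZ and 1908266 with BSO plus TGZ. The part of cell composition in the gene differences was not tested.

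The other marker lists were as follows. Erythroid markers had a median of 0.31 over 8, all above 0, with summed signals of 87023 with TGZ and 97550.2 with BSO plus TGZ. Neutrophil markers had 0.01 over 17, and their sums were 27172 and 27159, beside 11517 with vehicle. Lymphocyte markers had 0.13 over 10 of 15, and Cd3g, Cd8a, Cd79a, Klrb1c and Ncr1 were above background on neither array. Stellate cell and fibroblast markers had 0.01 over 13, and cholangiocyte markers -0.23 over 7 of 10 (0.03 with spike-in scaling), with Krt7 and Epcam above background on neither array. None of these lists had a gene past 2-fold.

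**Figure D4:**
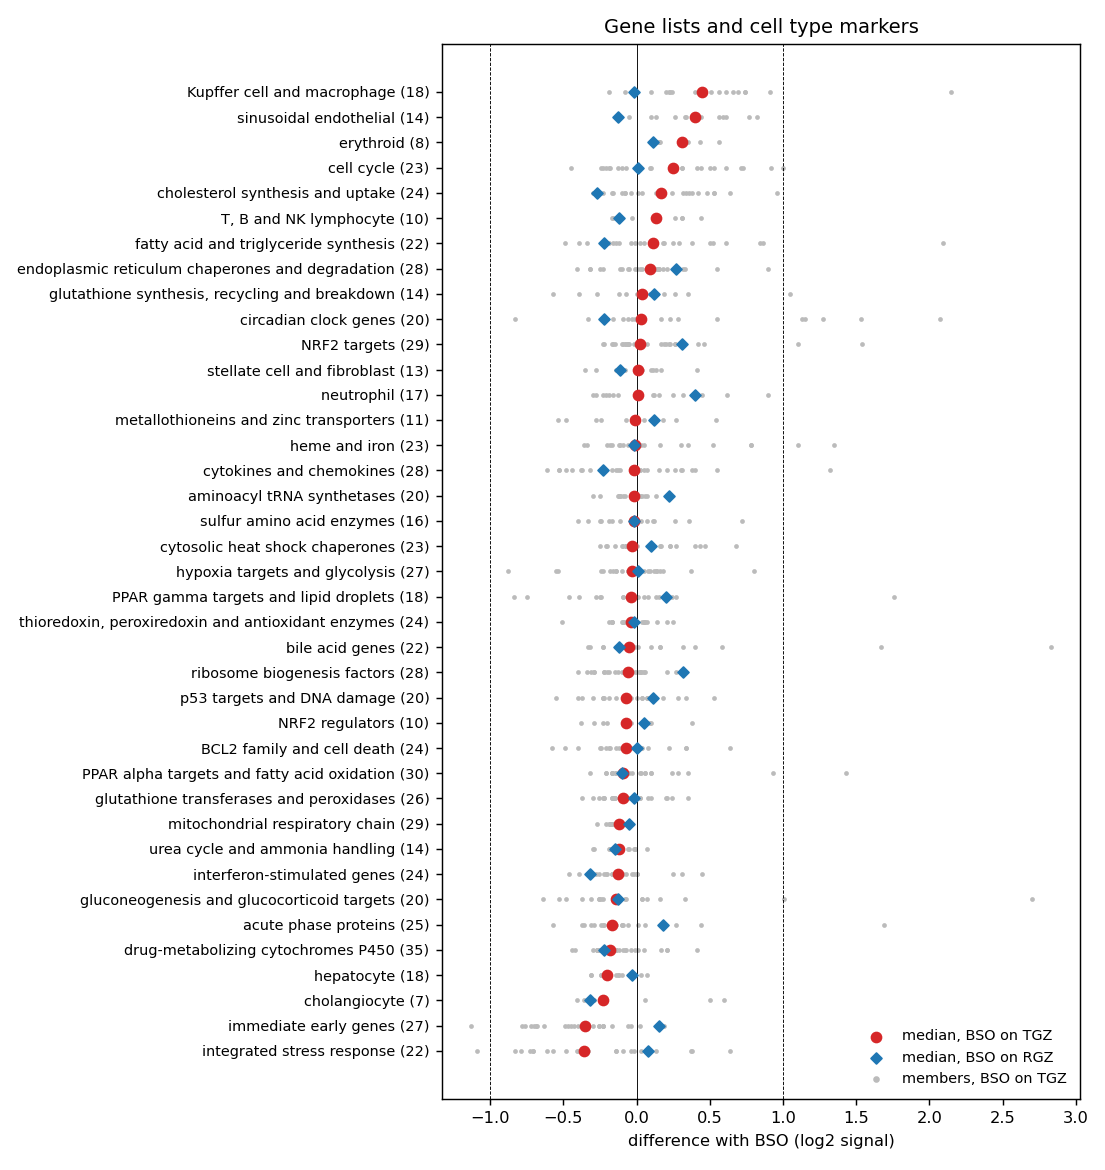
Difference with BSO (horizontal axis, log2 signal) for each gene list and marker list, with the number of genes with a value in brackets; grey points are the genes in BSO plus TGZ against TGZ, red circles their median, and blue diamonds the median in BSO plus RGZ against RGZ. Medians with TGZ run from -0.36 for the integrated stress response to 0.45 for Kupffer cell and macrophage markers, and most single genes lie between the dashed 2-fold lines.

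Inflammatory, stress and housekeeping lists held few genes past 2-fold. Acute phase proteins had a median of -0.17 over 25 (0.10 with spike-in scaling), with Saa3 past 2-fold. Saa3, the serum amyloid A made largely outside hepatocytes, had 264 with vehicle, 2249 with TGZ and 7268 with BSO plus TGZ, 3.23-fold higher (2.45 to 4.26), and 10696 and 61489.7 on the RGZ arrays. Cytokines and chemokines had a median of -0.02 over 28, with the B cell chemokine Cxcl13 at least 2.49-fold higher (16.5 with BSO plus TGZ, not well above background with TGZ, and 0.18 with normexp). Interferon-stimulated genes had -0.13 over 24 (0.14 with spike-in scaling), and drug-metabolizing cytochromes P450 -0.18 over 35, with 29 below 0 (0.08 with spike-in scaling). Cell cycle genes had 0.25 over 23, a median that moved with the processing. It was 0.05 with normexp, 0.10 with no filter on dim probes, 0.17 with genes well above background on both arrays and 0.52 with spike-in scaling. In this list Aurka, a mitotic kinase, was just at 2-fold (13.0 and 25.9, vehicle 25.8), and Ccnd1, cyclin D1, was 1.66-fold higher. Aurka was below 2-fold with median scaling (0.93), quantile normalization (0.96) and normexp (0.31).

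No gene was past 2-fold in the lists that follow. Cytosolic heat shock chaperones had a median of -0.03 over 23, with Hspa1b at 0.68 and Hspa1a at 0.16. Endoplasmic reticulum chaperones and degradation genes had 0.09 over 28, with Derl3 at 0.90 (73.9 and 138, vehicle 1663). The p53 targets had -0.07 over 20, with Cdkn1a (p21) at -0.37 (4391 and 3408), and BCL2 family and cell death genes -0.07 over 24, with Bcl2l1 at -0.49. Hypoxia targets and glycolysis had -0.03 over 27, ribosome biogenesis factors -0.06 over 28, and aminoacyl tRNA synthetases -0.02 over 20. The mitochondrial respiratory chain had -0.12 over 29, with every gene between -0.27 and -0.03 (median 0.15 with spike-in scaling). Urea cycle and ammonia handling had -0.12 over 14 (0.14 with spike-in scaling).

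The same BSO dose was also given with RGZ, and the RGZ and BSO plus RGZ arrays share none with the pair above. There, among 21232 genes with a value, 111 were at least 2-fold higher with BSO (0.523%) and 154 lower (0.725%), against 326 and 103 in the TGZ pair. The balance on RGZ turned with the scaling, to 154 higher and 104 lower with median scaling and 133 and 113 with quantile normalization, and was 130 and 133 with spike-in scaling. Across 18666 genes that passed the background call on each of the 4 arrays, the differences with BSO on TGZ and on RGZ had a Pearson correlation of -0.006. It is given as a description, since genes are not independent and each group had 1 array. Any effect of processing that arrays share cannot be told apart here. Of these genes 204 were higher on TGZ and 57 on RGZ, with 5 in common, 2.45% of the former and 8.77% of the latter. Among all genes with a value, a wider set than the 18666 since it includes bounds, 0.523% were higher on RGZ and 1.57% on TGZ. Both shares in common were above these, although they rest on 5 genes, come from the narrower set and were not tested. The 5 were Saa3, Ppp1r3c, Cgref1, Lrrc14b and Atp6v0a4, of which the last 3 were below 2-fold on TGZ with normexp (0.69, 0.33 and 0.21). Lower were 40 on TGZ and 72 on RGZ of the same 18666 genes, with 1 in common, the transcript AK044091 (-0.47 on TGZ with normexp). In the wider set with bounds, 0.495% of genes were lower on TGZ and 0.725% on RGZ. With counts this small, 1 gene in common shows neither an overlap nor its absence.

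Several genes that were more than 2-fold higher on TGZ were below 2-fold, in either direction, in the RGZ pair. G6pc was at 0.09 there, Fam89a at 0.22, Kcnj10 at -0.14, Fasn at -0.60 and Angptl8 at 0.54. Prok1, Wnt5b, Dclk3 and Cyp7a1 were lower with BSO on RGZ, at -0.56, -0.54, -0.56 and -0.73. Hmox1 was at 0.39 (748 with RGZ, 979 with BSO plus RGZ), and the clock genes Per2, Hlf and Dbp were at -0.38, -0.29 and -0.45. Srebf1 was at 0.86 on TGZ and -1.38 on RGZ, with 9320.3 with RGZ and 3572 with BSO plus RGZ. Saa3 was higher in both, at 1.69 and 2.52.

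In the other direction, several genes higher with BSO on RGZ were near 0 or lower on TGZ. Srxn1 had 2279.7 with RGZ and 10287 with BSO plus RGZ (2.17), but 11499 with TGZ and 10749 with BSO plus TGZ (-0.10). Gclc was at 1.03 on RGZ and 0.05 on TGZ, Txnrd1 at 1.06 and 0.07, Gstp1 at 1.18 and 0.24, and Gsr at 0.70 and 0.14. As a list, NRF2 targets had a median of 0.31 on RGZ and 0.02 on TGZ, with 4 genes past 2-fold on RGZ and 2 on TGZ. Cd14, the endotoxin co-receptor, was at 1.53 on RGZ (202 and 584) and -0.66 on TGZ (20933 and 13289). Bhlha15 was at 1.46 and -0.60, and Ier3 at 1.27 and -0.70. Sulf2, an extracellular sulfatase, was at -2.88 on RGZ (1396 and 189) and -0.14 on TGZ (435 and 395). Further list medians on RGZ were 0.40 for neutrophil markers, 0.32 for ribosome biogenesis factors, -0.27 for cholesterol synthesis and -0.22 for fatty acid synthesis and for clock genes, beside 0.01, -0.06, 0.17, 0.11 and 0.03 on TGZ. Whether the effects of BSO on the 2 compounds differ was not tested, since each rests on 1 array a group.

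**Figure D5:**
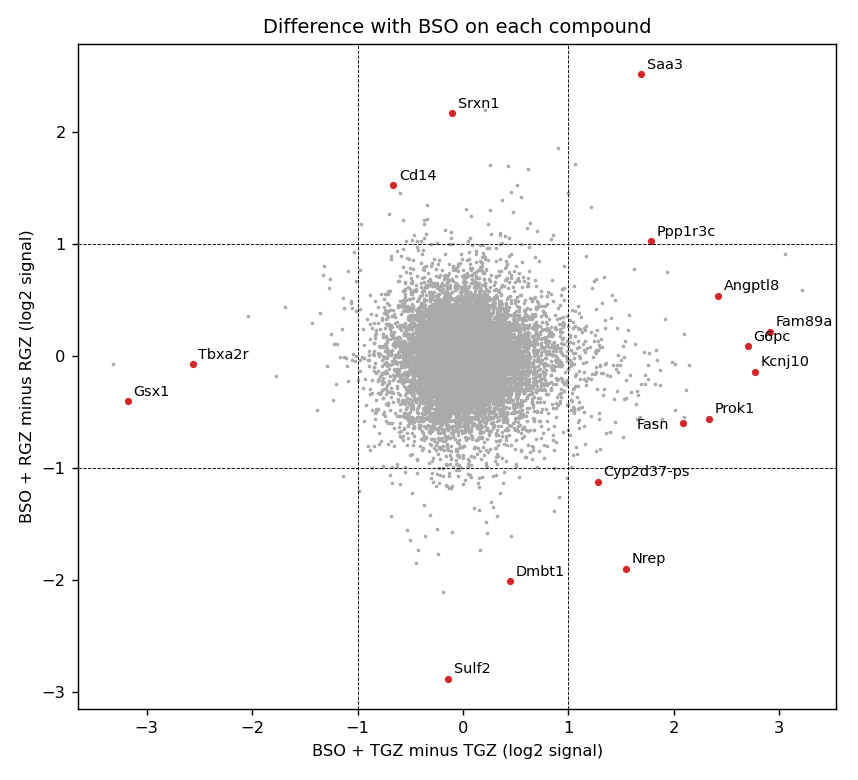
Difference with BSO on RGZ (vertical axis, log2 signal) against that on TGZ (horizontal axis, log2 signal) for the 18666 genes that passed the background call on each of the 4 arrays, with dashed lines at 2-fold and labelled genes in red. Genes far from 0 lie mostly along the 2 axes, such as G6pc (2.70 and 0.09) and Srxn1 (-0.10 and 2.17), and Saa3 (1.69 and 2.52) lies in the upper right corner.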

How the data were processed

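Pooled liver RNA was Cy3-labelled and read on Agilent mouse arrays, per the labels. The deposited scanner files give a processed signal, an intensity that Agilent Feature Extraction 12.0.3.1 had background-subtracted and that the authors had not scaled between arrays, per the file headers. A deposited table of log2 values equals the log2 of these signals plus 1 constant per array, apart from an SD of 0.001 to 0.002 (column medians 3.92 to 4.07), and served as an alternative. The sources used here do not give its software.

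Spots of a probe were averaged, control spots and outlier spots left out, and the array's 75th percentile subtracted on the log2 scale. Each gene name was represented by its brightest probe by the mean of the 5 arrays. Genes well above background on 1 of the compared arrays were given a bound against the higher of the dim signal and the lowest signal well above background there. Fold intervals combine the error that Feature Extraction gives for both spots. The 31 gene lists and 8 marker lists, the members and the tests were chosen with earlier results of these data known. Named genes were the 15 largest measured differences and 4 largest bounds in each direction with a RefSeq symbol and no contradicting probe, up to 5 genes per list (more where a list is described), 10 genes of glutathione and stress biology, and, in either direction, the 6 genes whose BSO differences on TGZ and on RGZ were farthest apart. Of the gene names 24765 matched RefSeq, 15724 of them members. The script was tested on simulated data. Tools were Python 3.11.15, pandas 2.3.3, R 4.3.3 and limma 3.58.1 (normexp with offset 50, and quantile normalization). Alternatives were scaling (median, quantile, spike-in), the deposited table, normexp, 3 filters, the mean over probes and a 1.5-fold limit. Having 1 array a group limits precision. Values of some genes on the lists are not reported here.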

Additional observations from a re-analysis of the deposited data

Results flagged for a closer look

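Of the genes that passed the background call on each of the 4 arrays, 2 were past 2-fold in opposite directions in the TGZ and RGZ pairs. Both were among the 204 genes higher on TGZ and the 72 lower on RGZ, of 18666. Nrep, a regulator of neuronal regeneration and fibroblast behaviour, was at 1.55 (log2) with BSO on TGZ (143 with TGZ, 419 with BSO plus TGZ) and at -1.90 on RGZ (618 with RGZ, 166 with BSO plus RGZ), beside 987 with vehicle. Cyp2d37-ps, a cytochrome P450 pseudogene whose probe could share sequence with other Cyp2d genes, was at 1.28 on TGZ (299.6 and 726) and at -1.12 on RGZ (2886 and 1324), beside 4724 with vehicle. With 1 array per group neither difference was tested.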

How the results depend on the processing

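No paired analysis was possible because each group had 1 array. The 326 higher and 103 lower genes became 694 and 41 with spike-in scaling, 50 and 17 with normexp, 1373 and 1260 with no filter on dim probes, 209 and 52 with genes well above background on both arrays, 208 and 52 with the submitters' filter, and 1126 and 674 at 1.5-fold. Median scaling (257 and 145), quantile normalization (295 and 141), the deposited table (322 and 105) and the mean over probes (304 and 102) stayed within 1.5 times. Of the genes past 2-fold, 49 of the higher and 17 of the lower kept that size with normexp, whose offset pulls dim probes together. Of the named genes with a value, 51 left their 95% interval with normexp and 8 with the mean over probes. Counts of 2-fold differences among dim genes are the least firm values here.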

Other observations

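Histone genes, taken by gene name and chosen after their values were seen, included a few with large differences. Of 57 histone names on the array 43 had a value, with a median of 0.07 (log2), 5 at least 2-fold higher and 0 lower. The shares of all genes with a value were 1.57% higher and 0.495% lower. As the family was picked for its values, its count is a description only. Hist2h3c1 had 99.9 with vehicle, 7.42 with TGZ and 68.7 with BSO plus TGZ, 9.27-fold higher (5.87 to 14.6), but 1.25 (log2) with normexp, outside that interval. Hist2h3c2 had 199, 21.6 and 178, 8.26-fold higher (6.10 to 11.2), and 1.90 with normexp. Hist2h2bb was not well above background with TGZ (4.72), had 86.3 with BSO plus TGZ and 89.4 with vehicle, and was at least 13.0-fold higher, but 1.38 with normexp and 2.32 as a mean over probes. Hist1h4i (90.0 and 340.3, 3.78-fold) and Hist2h2be (16.6 and 43.6, 2.63-fold) were the others, the former at 1.23 as a mean over probes and the latter at 0.51 with normexp. The 5 had 0.33 to 0.91 in the RGZ pair. Probes of related histone genes can share sequence.

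Of myeloid receptor genes outside the fixed lists, picked after their values were seen, Trem2 had 9.37 with TGZ and 20.7 with BSO plus TGZ (2.21-fold higher, 1.42 to 3.45), and 20.6 with vehicle. Clec5a had 8.25 and 18.2 (2.21-fold higher, 1.39 to 3.52) and was not well above background on the other 3 arrays. Both were below 2-fold with normexp (0.18 and 0.14). Inhba, the activin A subunit gene, had 165 with vehicle, 20.1 with TGZ and 62.3 with BSO plus TGZ (3.11-fold higher, 2.24 to 4.31), and 0.70 with normexp.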
